A study of Homo sapiens with 8 samples.

Results

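The genes described are the 8 that encode the subunits of AMP-activated protein kinase (AMPK) found in these cells and the main kinases that switch it on: PRKAA1, PRKAA2, PRKAB1, PRKAB2, PRKAG1, PRKAG2, STK11 and CAMKK2. They were taken by gene symbol from the table of read counts, where 8 of 15767 genes carried these symbols, and all 8 had enough reads to be tested. RNA sequencing was performed on HuH7, an established human hepatoma cell line labelled as wild type, with 4 libraries in each of 2 groups. All cells were deprived of oxygen (1% O2) and glucose for 6 h and then returned to normal oxygen (oxygen-glucose deprivation and reoxygenation, OGD/R). During the 6 h of reoxygenation the OGD/R+DMSO group received the solvent dimethyl sulphoxide and the OGD/R+Rk2 group received 20 µM ginsenoside Rk2, a saponin of ginseng. No library of cells without OGD/R was analysed here, so both groups had been through the same deprivation. The labels do not say whether libraries of a group came from separate cultures, so the p-values measure the spread between these libraries, which may be technical.

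AMPK is a kinase that senses a fall in cellular energy. Each enzyme joins a catalytic α subunit (α1 from PRKAA1 or α2 from PRKAA2), a β scaffold that also binds glycogen (PRKAB1 or PRKAB2) and a γ subunit that binds AMP, ADP and ATP (PRKAG1 or PRKAG2, with PRKAG3 mainly in skeletal muscle). It becomes active when LKB1, the product of STK11, or the calcium-dependent kinase CaMKK2 phosphorylates a threonine in the activation loop of the α subunit. In liver cells it restrains fatty acid and sterol synthesis and promotes autophagy. RNA libraries measure transcript levels, and neither the proteins nor their phosphorylation was measured in these data.

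The activation loop is shown because it is the point on which both upstream kinases act and because it shows how far the 2 catalytic genes differ as RNA. The stretch of 81 coding bases from GENCODE v29 (GRCh38) runs over exons 4 and 5 of 9 in each gene, with an intron between them in the genome. It lies within chr5:40769430-40771725 on the minus strand for PRKAA1 and within chr1:56692496-56693838 on the plus strand for PRKAA2. Capitals mark the bases that differ between the genes.
PRKAA1: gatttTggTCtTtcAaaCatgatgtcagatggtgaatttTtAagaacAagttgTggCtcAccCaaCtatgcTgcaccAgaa
PRKAA2: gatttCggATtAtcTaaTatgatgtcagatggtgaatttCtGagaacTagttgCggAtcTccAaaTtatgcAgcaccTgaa
The stretches differed at 16 bases, of which 14 were the last base of a codon, and they encoded the same 27 amino acids. The phosphorylated threonine is codon 16 of the stretch, which is codon 183 of the PRKAA1 transcript used and codon 172 of PRKAA2. Over the whole coding sequence, 71.8% of aligned bases were identical between the α genes, 70.1% between the β genes and 68.2% between PRKAG1 and PRKAG2. No run of 50 bases was shared within any of these pairs of genes, and the longest shared run was 24 bases, between PRKAA1 and PRKAA2. A read longer than that run therefore differs from the other gene at some base.

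The libraries held between 16374082 and 30310479 counted reads. The 8 hepatocyte and hepatoma markers examined were all expressed, and their summed level was 4058 to 4528 fragments scaled to transcript length and library size (FPKM) in the OGD/R+DMSO libraries and 4399 to 4521 FPKM in the OGD/R+Rk2 libraries. Of 9 markers of leukocytes, endothelium, fibroblasts and muscle, 3 (CD68, LYZ and PECAM1) had a mean above 1 FPKM, and PTPRC, VWF and MYH7 were listed at 0 in every library. The summed level of those 9 markers was 361 to 403 FPKM in the OGD/R+DMSO group and 356 to 407 FPKM in the OGD/R+Rk2 group. Most of that sum was LYZ, at 323 to 377 FPKM over all libraries, with CD68 at 24.1 to 32.6 and PECAM1 at 1.07 to 2.10 FPKM.

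Of the 8 genes, PRKAA2 alone passed the test between the groups. It was higher with Rk2, by 1.63-fold, and was the least expressed of the 8 in both groups. PRKAA1, the β and γ subunit genes, STK11 and CAMKK2 did not pass the test. In edgeR's quasi-likelihood test over all 12928 tested genes, 18.2% were called at an adjusted p below 0.05, with 11.0% higher and 7.23% lower in OGD/R+Rk2, so 1 call among 8 genes is no larger a share than that of all genes. The median log2 fold change of the 8 genes was -0.03, beside -0.00211 for all tested genes. With the added condition of a change above 1.5-fold, 3.04% of tested genes were called, and PRKAA2 was among them. Normalised counts (CPM, counts scaled to library size) did not overlap between the groups for 1 of the 8 genes, beside 28.2% of all tested genes.

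**Figure D1:**
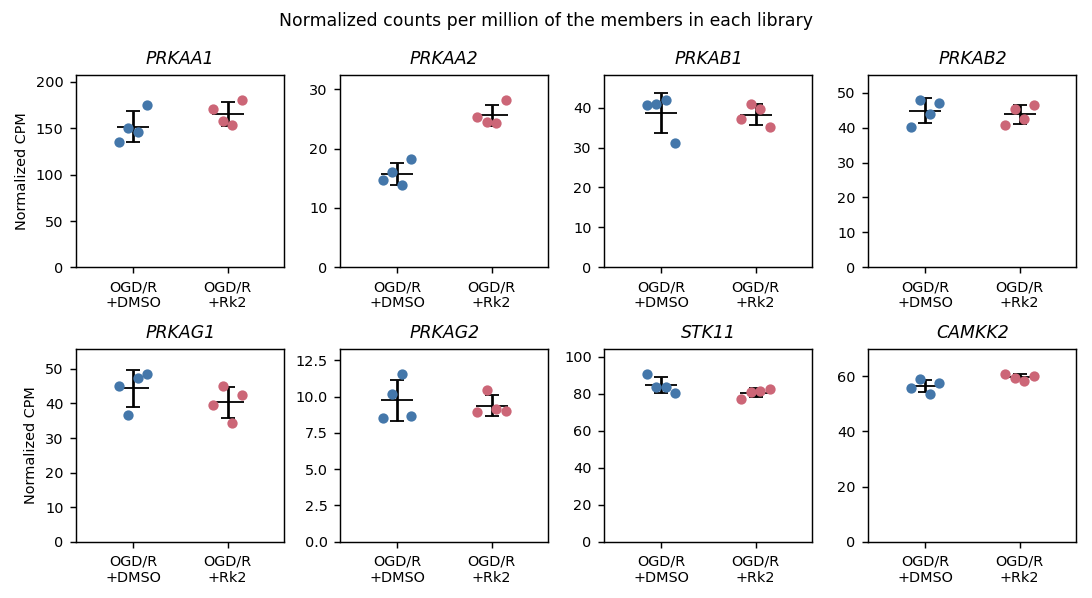
Normalised CPM of each of the 8 genes in every library (points), with the mean and SD of each group of 4 libraries (bars). PRKAA2 lies between 13.8 and 18.2 CPM in the OGD/R+DMSO libraries and between 24.4 and 28.2 CPM in the OGD/R+Rk2 libraries, and the groups overlap for the other 7 genes.

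Among the catalytic subunits, PRKAA2 (chr1:56645322-56715335) was counted at 277, 343, 251 and 388 reads in OGD/R+DMSO replicates 1 to 4, and at 774, 462, 403 and 559 reads in OGD/R+Rk2 replicates 1 to 4. After normalisation this gave 14.7, 16.1, 13.8 and 18.2 CPM with DMSO, and 25.3, 24.4, 24.4 and 28.2 CPM with Rk2. Every OGD/R+Rk2 library was above every OGD/R+DMSO library. The mean was 15.7 ± 1.91 CPM (SD, n = 4) with DMSO and 25.6 ± 1.82 CPM (SD, n = 4) with Rk2. The log2 fold change was 0.70 (SE 0.0967, 95% interval 0.48 to 0.93, edgeR quasi-likelihood test, adjusted p = 0.00319).

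PRKAA1 (chr5:40759379-40798374), the other catalytic gene, was at 136, 150.5, 146 and 175 CPM in the OGD/R+DMSO replicates and at 170.3, 157, 153 and 181 CPM in the OGD/R+Rk2 replicates. The groups overlapped, since OGD/R+DMSO replicate 4 exceeded all but 1 of the OGD/R+Rk2 libraries. The group means were 152 ± 16.7 CPM and 165 ± 12.6 CPM (SD, n = 4). On the log2 scale they differed by 0.12, with a 95% interval from -0.07 to 0.32 (edgeR, adjusted p = 0.348).

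Fold changes in these libraries followed gene length, and PRKAA2 is a long transcript. Across 12926 genes the log2 fold change rose with the length implied by the counts and FPKM (Spearman's rho 0.388, computed across genes, and genes are no replicates of a condition). The 405 tested genes whose implied length was within 1.25 times that of PRKAA2 had a median log2 fold change of 0.25, with quartiles of 0.05 and 0.43, and 0.70 for PRKAA2 lay above the upper quartile. When each library was corrected for this trend, the difference of PRKAA2 became 0.45 on the log2 scale (95% interval 0.28 to 0.62, edgeR, adjusted p = 0.00516), or 1.37-fold, which no longer reached 1.5-fold. The median of the 405 genes was then 0.00246. No other gene of the 8 passed the test after the correction.

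**Figure D2:**
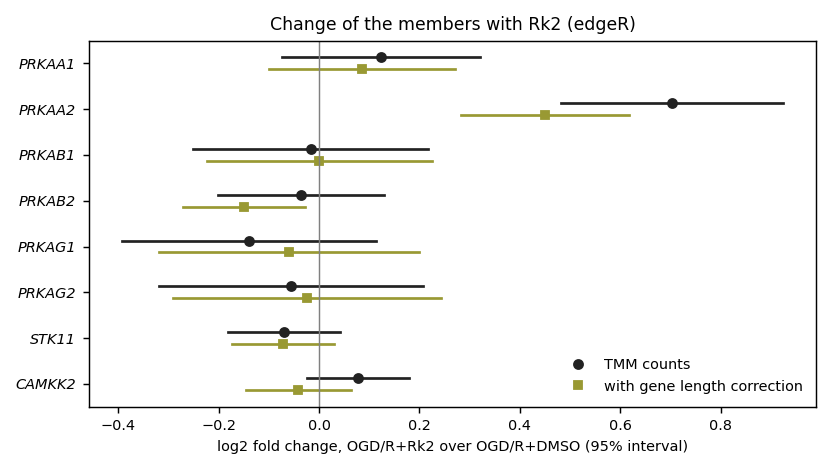
Log2 fold change of each of the 8 genes, OGD/R+Rk2 over OGD/R+DMSO, with 95% intervals, from the counts as normalised and after the correction for gene length. PRKAA2 moves from 0.70 to 0.45 and its interval excludes 0 in both fits, while the corrected interval of PRKAB2, which is not adjusted for the number of genes, also lies below 0.

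The β subunits hold the complex together. PRKAB1 (chr12:119667753-119681630) was at 40.6, 41.0, 42.0 and 31.1 CPM in the OGD/R+DMSO libraries and at 37.1, 41.0, 39.7 and 35.2 CPM in the OGD/R+Rk2 libraries. The groups overlapped, and OGD/R+DMSO replicate 4 was the lowest of the 8 libraries. Its log2 fold change was -0.02, with a 95% interval from -0.25 to 0.22 (edgeR, adjusted p = 0.932). PRKAB2 (chr1:147155106-147172550) was at 40.2, 48.0, 44.0 and 47.1 CPM with DMSO and at 40.8, 45.2, 42.5 and 46.5 CPM with Rk2. The ranges of this gene were nearly the same in both groups, and its log2 fold change was -0.04 (95% interval -0.20 to 0.13, edgeR, adjusted p = 0.766). After the length correction the estimate for PRKAB2 was -0.15, which also missed the threshold (edgeR, adjusted p = 0.0918).

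The γ subunits bind the adenine nucleotides. PRKAG1 (chr12:49002274-49018825) was at 45.0, 36.7, 47.4 and 48.5 CPM with DMSO and at 39.6, 44.9, 34.4 and 42.4 CPM with Rk2. The spread within each group covered most of the range of the other, and the log2 fold change was -0.14 (95% interval -0.39 to 0.11, edgeR, adjusted p = 0.412). PRKAG2 (chr7:151556111-151877125) was lower, at 8.54, 10.2, 11.6 and 8.67 CPM with DMSO and 8.96, 10.4, 9.12 and 8.99 CPM with Rk2. All 4 OGD/R+Rk2 values of PRKAG2 fell inside the range of the OGD/R+DMSO libraries, and its log2 fold change was -0.06 (95% interval -0.32 to 0.21, edgeR, adjusted p = 0.773). PRKAG3, the γ subunit known from skeletal muscle, had no row in the count table and was listed at 0 FPKM in every library.

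Of the upstream kinases, STK11 (chr19:1177558-1228435), which encodes LKB1, was at 90.6, 83.5, 83.5 and 80.4 CPM with DMSO and at 77.0, 81.1, 81.6 and 82.2 CPM with Rk2. OGD/R+DMSO replicate 4 lay among the OGD/R+Rk2 libraries, and the other OGD/R+DMSO libraries lay above them. The log2 fold change was -0.07 (95% interval -0.18 to 0.04, edgeR, adjusted p = 0.344). CAMKK2 (chr12:121237691-121298308) was at 55.9, 58.9, 53.7 and 57.6 CPM with DMSO and at 60.8, 59.4, 58.4 and 60.0 CPM with Rk2. Here 3 OGD/R+Rk2 libraries exceeded every OGD/R+DMSO library and the remaining one did not, with a log2 fold change of 0.08 (95% interval -0.02 to 0.18, edgeR, adjusted p = 0.251).

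The 95% intervals of the 7 genes that did not pass the test lay inside a 1.5-fold change in either direction, and the bound farthest from 0 was -0.39 on the log2 scale, for PRKAG1. Differences within these intervals cannot be told from no difference in these data. Exons of PRKAB1, PRKAG1, PRKAG2 and STK11 overlap a gene on the opposite strand over 137, 532, 84 and 149 bases (AC002070.1, DDN-AS1, PRKAG2-AS1 and CBARP). Whether strand was used in counting is not given in the sources used here, so reads from those stretches cannot be told apart.

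Levels of different genes were compared per length, by FPKM. In the OGD/R+DMSO group PRKAA1 was the most abundant, at 43.0 ± 8.32 FPKM (SD, n = 4), followed by STK11 at 29.9 ± 1.80, PRKAG1 at 26.8 ± 5.26 and PRKAB1 at 16.01 ± 3.06 FPKM. CAMKK2 at 9.54 ± 1.38, PRKAB2 at 8.25 ± 1.39, PRKAG2 at 4.93 ± 1.16 and PRKAA2 at 1.39 ± 0.175 FPKM completed the order. STK11 and PRKAG1 overlapped, with STK11 the higher in 2 of 4 libraries, and so did CAMKK2 and PRKAB2, with CAMKK2 the higher in 3 of 4. All other neighbours in the order were apart in every library. With Rk2 the mean order was the same, from PRKAA1 at 49.9 ± 6.36 to PRKAA2 at 2.32 ± 0.173 FPKM (SD, n = 4), and PRKAB1 (15.2 ± 2.97) and CAMKK2 (13.4 ± 3.24) were the only neighbours that overlapped.

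**Figure D3:**
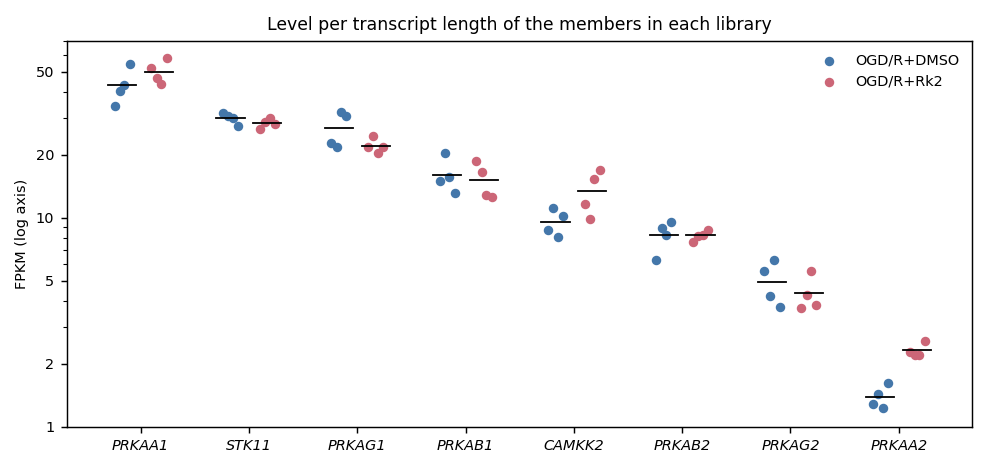
FPKM of the 8 genes in every library (points) on a log axis, with the mean of each group, ordered by level. PRKAA1 is highest and PRKAA2 lowest in both groups, with OGD/R+DMSO means of 43.0 and 1.39 FPKM.

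The α1 isoform dominated the catalytic class. By FPKM, PRKAA2 made up 3.599, 3.44, 2.75 and 2.90% of the summed α transcripts in the OGD/R+DMSO libraries and 4.19, 4.56, 4.84 and 4.26% in the OGD/R+Rk2 libraries. The groups did not overlap. The share was 3.17 ± 0.41% with DMSO and 4.46 ± 0.30% with Rk2 (SD, n = 4 each), and PRKAA1 was on average 30.9 and 21.5 times as abundant as PRKAA2. The difference of 1.29 percentage points gave p = 0.0286 in a two-sided exact permutation test, the smallest p that 4 against 4 libraries allow, and 0.0857 after Benjamini-Hochberg adjustment over the 3 subunit classes. Summed α transcripts were 44.4 ± 8.45 FPKM with DMSO and 52.2 ± 6.52 FPKM with Rk2, so the higher level of PRKAA2 was a small part of the α total.

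PRKAB1 was the higher β isoform and PRKAG1 the higher γ isoform by FPKM, each in 8 of 8 libraries. PRKAB2 held 29.5, 30.4, 34.6 and 42.1% of β transcripts with DMSO and 29.1, 33.3, 39.1 and 41.0% with Rk2. The spread between libraries was far larger than the difference of 1.46 percentage points (two-sided exact permutation test, p = 0.8, adjusted p = 0.8). PRKAG2 held 19.6, 16.3, 16.3 and 10.8% of γ transcripts with DMSO and 14.6, 14.7, 21.4 and 15.03% with Rk2. That difference was 0.664 percentage points and was also within the spread (two-sided exact permutation test, p = 0.8, adjusted p = 0.8). By FPKM, the most abundant combination of subunit transcripts was thus PRKAA1, PRKAB1 and PRKAG1 in both groups, which describes RNA and not assembled complexes.

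**Figure D4:**
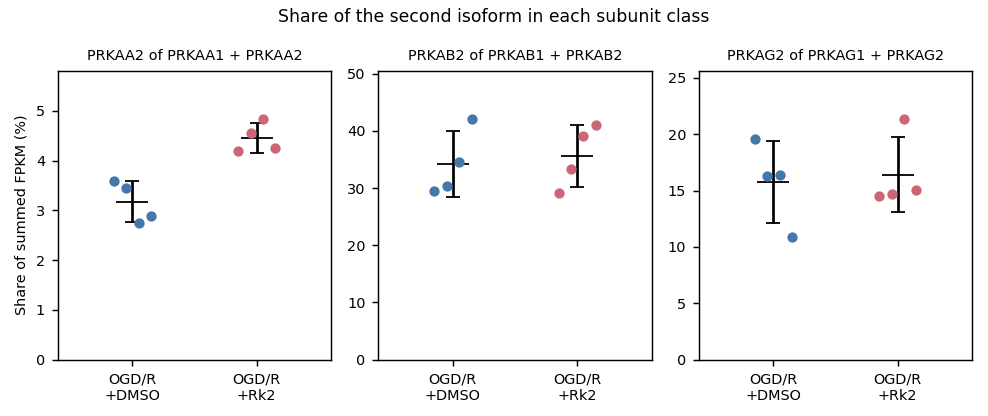
Share of PRKAA2, PRKAB2 and PRKAG2 in the summed FPKM of its subunit class, in percent, in every library (points) with the group mean and SD (bars). The PRKAA2 share is 2.75 to 3.599% with DMSO and 4.19 to 4.84% with Rk2, while the groups overlap for PRKAB2 and PRKAG2.

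Dominance within the α and γ classes did not turn on the length used, but dominance within the β class did. With counts divided by the length of the principal GENCODE v29 transcript (5088 bases for PRKAA1 and 9347 for PRKAA2), the PRKAA2 share was 5.33% with DMSO and 7.77% with Rk2. The PRKAG2 share was 10.2% and 10.7% on that scale. The PRKAA2 share differed between groups by 2.44 percentage points by principal transcript length. With length-corrected counts divided by the implied length, the PRKAA2 share was 3.26% with DMSO and 4.15% with Rk2, a difference of 0.888 points. PRKAB2 held 36.0% and 35.6% of β transcripts by principal transcript length, but 57.1% and 56.7% when counts were divided by all annotated exon bases, where it was above 50% in 8 of 8 libraries. The principal transcript is 2610 bases for PRKAB1 and 5417 for PRKAB2, whereas the annotated exons cover 6246 and 5460 bases. Which β isoform was the more abundant therefore depended on the length taken for PRKAB1.

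CAMKK2 was the gene of the 8 for which counts and FPKM differed most between libraries. Its FPKM was 8.74, 11.1, 8.08 and 10.2 with DMSO and 11.6, 9.86, 15.3 and 16.9 with Rk2, so OGD/R+Rk2 replicates 3 and 4 stood above the rest. In CPM the same libraries were at 58.4 and 60.0, beside 60.8 and 59.4 CPM in replicates 1 and 2, and did not stand above the rest of their group. The length implied by the counts and FPKM was 5276 to 6552 bases in the OGD/R+DMSO libraries, 5290 and 6078 bases in OGD/R+Rk2 replicates 1 and 2, and 3872 and 3604 bases in replicates 3 and 4. GENCODE v29 lists 13 protein-coding transcripts of CAMKK2, from 543 to 5598 bases, and the transcript used in each library was not tested. The implied length of up to 6552 bases exceeds the longest of these. It is a ratio of the 2 deposited measures and not a measured transcript length. The log2 fold change on the scale log2(FPKM + 1) was 0.43, which did not pass either (limma, adjusted p = 0.137). For PRKAA2 the implied length stayed between 11111 and 11266 bases in all 8 libraries, above the 9347 bases of its longest annotated protein-coding transcript. On the scale log2(FPKM + 1) the log2 fold change of PRKAA2 was 0.47 (limma, adjusted p = 0.0123). With a pseudocount of 0.1 it was 0.70 for PRKAA2 (limma, adjusted p = 0.0137) and 0.47 for CAMKK2 (limma, adjusted p = 0.137).

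Genes around AMPK were taken from 4 lists compiled by hand and a separate entry for PRKAG3, 64 genes in all, of which 59 could be tested. Of these, 15 were higher and 6 lower in OGD/R+Rk2, or 35.6% called, beside 18.2% of all tested genes. Their median log2 fold change was 0.06. Fold changes of these genes are given without the length correction unless stated. The correction made some changes smaller and others larger, such as those of TBC1D1 (0.40 to 0.45) and TXNIP (-0.69 to -0.73). The lists were chosen with earlier results of these data known and are not independent evidence.

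**Figure D5:**
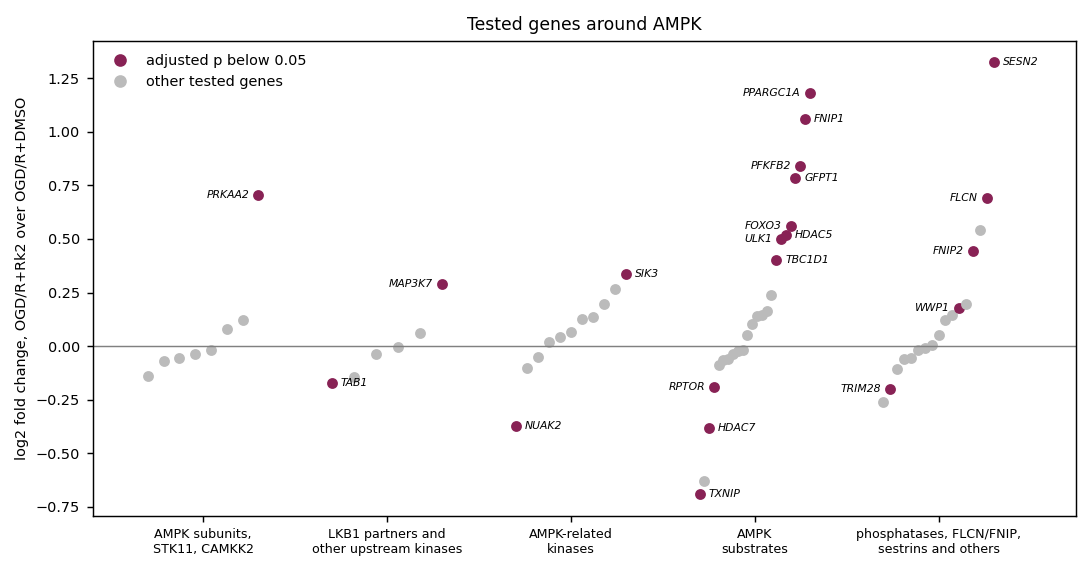
Log2 fold change, OGD/R+Rk2 over OGD/R+DMSO, of tested genes in the 5 groups (the 8 genes and the 4 lists around AMPK), with genes at an adjusted p below 0.05 coloured and named. SESN2 is the highest at 1.32 and TXNIP the lowest at -0.69.

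Among the partners of LKB1 and other upstream kinases, 1 of 6 tested genes was higher and 1 lower (33.3%, beside 18.2% of all tested genes). The median log2 fold change of the 6 was -0.02. MAP3K7, which encodes TAK1, a kinase able to phosphorylate the α subunit, was at 43.9 ± 2.52 CPM with DMSO and 53.7 ± 2.97 CPM with Rk2 (SD, n = 4, log2 fold change 0.29, edgeR, adjusted p = 0.0167). TAB1, its activating partner, was at 44.7 ± 0.947 and 39.7 ± 1.82 CPM (log2 fold change -0.17, edgeR, adjusted p = 0.0461). With the length correction MAP3K7 was at 0.17 and TAB1 at -0.22 (edgeR, adjusted p = 0.0490 and 0.0161). Neither call was firm. The MAP3K7 call was lost without OGD/R+Rk2 replicate 2 or replicate 4 (adjusted p up to 0.0527), and the TAB1 call was kept in only 1 of the 8 fits that left a library out, the one without OGD/R+DMSO replicate 1 (adjusted p up to 0.114), and in 5 of the 12 alternatives with all libraries (adjusted p up to 0.237). CAMKK1, the close relative of CAMKK2, had too few reads to be tested.

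The AMPK-related kinases, which LKB1 also activates, gave 1 higher and 1 lower gene of 11 tested, or 18.2%, the same share as over all tested genes, with a median of 0.07. SIK3, a salt-inducible kinase, was at 45.7, 52.0, 55.3 and 52.6 CPM with DMSO and 61.6, 65.9, 66.7 and 65.6 CPM with Rk2, a log2 fold change of 0.34 (edgeR, adjusted p = 0.0110) that did not pass in FPKM. NUAK2 was at 49.97, 52.8, 54.8 and 48.9 CPM with DMSO and 39.7, 42.6, 38.5 and 38.6 CPM with Rk2, a log2 fold change of -0.37 (edgeR, adjusted p = 0.00477). The groups were apart for both kinases. With the length correction SIK3 was at 0.23 and NUAK2 at -0.44 (edgeR, adjusted p = 0.0151 and 0.00219).

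Of the known AMPK substrates, 9 of 25 tested genes were higher and 3 lower (48%, beside 18.2% of all tested genes). Their median log2 fold change was 0.14. The smallest adjusted p among the higher genes was that of GFPT1, the entry enzyme of the hexosamine pathway, which rose from 143 ± 8.34 to 247 ± 6.54 CPM (SD, n = 4, log2 fold change 0.78, edgeR, adjusted p = 0.000104). With the length correction GFPT1 was at 0.54 (edgeR, adjusted p = 0.000193), which no longer reached 1.5-fold. FNIP1, a partner of folliculin, rose from 14.6 ± 1.56 to 30.5 ± 1.36 CPM (log2 fold change 1.06, edgeR, adjusted p = 0.000328), with 281 exon bases shared with AC008695.1. With the length correction FNIP1 was at 0.91. TBC1D1, a regulator of glucose transporter traffic, and HDAC5, a class IIa histone deacetylase, rose by 0.40 and 0.52 on the log2 scale (edgeR, adjusted p = 0.00231 and 0.00279), but neither passed in FPKM.

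The acetyl-CoA carboxylase genes, whose products are the classical AMPK substrates of fatty acid synthesis, did not pass. ACACA was at 98.0 CPM with DMSO and 93.7 CPM with Rk2 (log2 fold change -0.07, edgeR, adjusted p = 0.584). ACACB was near 2 CPM in both groups (1.997 and 2.24 CPM, log2 fold change 0.16, edgeR, adjusted p = 0.660).

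Further genes called higher among the substrates, named after their values were seen, were ULK1, which starts autophagy (log2 fold change 0.50), the transcription factor FOXO3 (0.56), the glycolytic regulator PFKFB2 (0.84) and the coactivator PPARGC1A (1.18). With the length correction these were 0.39, 0.35, 0.71 and 1.00. PPARGC1A rested on levels of 1.33 and 3.02 CPM, and its call was lost with the length correction (edgeR, adjusted p = 0.0631) and in 5 of the 8 fits that left a library out (adjusted p up to 0.0712). Lower with Rk2 were TXNIP, which limits glucose uptake, the histone deacetylase HDAC7 and RPTOR, the mTORC1 scaffold. TXNIP fell from 56.7 ± 2.07 to 35.1 ± 1.42 CPM (SD, n = 4, log2 fold change -0.69, edgeR, adjusted p = 0.000202). HDAC7 changed by -0.38 and RPTOR by -0.19 on the log2 scale (edgeR, adjusted p = 0.00354 and 0.0373), and the RPTOR call was kept in only 2 of 8 fits that left a library out. It was also lost with library size only, with the replicate block (edgeR, adjusted p = 0.0535) and in the 3 FPKM fits (limma, adjusted p up to 0.763). Exons of HDAC7, PFKFB2 and RPTOR overlap genes on the opposite strand over 1112, 315 and 261 bases, summed over the genes overlapped. Reads from those stretches cannot be told apart either.

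Among regulators of AMPK and of the nutrient signalling around it, 4 of 17 tested genes were higher and 1 lower. This was 29.4%, beside 18.2% of all tested genes, with a median of 0.05. SESN2, a stress-induced sestrin that binds AMPK, was at 33.1, 31.3, 34.8 and 33.3 CPM with DMSO and at 74.4, 80.7, 90.2 and 86.6 CPM with Rk2. This was the clearest separation among the lists, with a log2 fold change of 1.32 (edgeR, adjusted p = 5.2e-05). Folliculin (FLCN), which acts with FNIP1 and FNIP2, rose from 41.4 ± 2.49 to 66.7 ± 4.52 CPM (SD, n = 4, log2 fold change 0.69, edgeR, adjusted p = 0.000783), with 1161 exon bases shared with AC055811.2. FNIP2 rose by 0.44 on the log2 scale (edgeR, adjusted p = 0.0159), or by 0.28 with the length correction (edgeR, adjusted p = 0.0155). The ubiquitin ligase gene WWP1 rose by 0.18 (edgeR, adjusted p = 0.0120), and TRIM28, which takes part in degradation of the α1 subunit, changed by -0.20 (edgeR, adjusted p = 0.00944). Neither WWP1 nor TRIM28 passed in FPKM. Exons of WWP1 overlap RMDN1 on the opposite strand over 247 bases.

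As a description of likeness, the log2 CPM of each catalytic gene was correlated over the 8 libraries with that of the 10473 tested genes whose mean reached 5 CPM. Most like PRKAA2 were PAPOLA (Pearson's r 0.997), COG6 (0.993) and ZNF12 (0.993), with log2 fold changes of 0.28, 0.71 and 0.40. Those most like PRKAA1 were ZMIZ1 (0.970), RDX (0.961) and TFAM (0.960), whose fold changes did not pass the test. These 8 points hold both groups and share library depth.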

How the data were processed

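Total RNA of 8 HuH7 samples was made into libraries by the authors with a kit of MGI. The submitters' processing notes name FastQC 0.11.5, HISAT2 2.2.1, StringTie 1.3.3 and the build hg38, while the annotation and the counting tool are not given in the sources used here. The authors deposited raw counts per gene (15767 genes, not normalised) and FPKM per gene (19799 genes, scaled to transcript length and library size). Among the count rows, 22 had names turned into dates (0.111% of counts). They stayed in the fits and were assigned to no gene.

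Groups were taken from the deposited labels. The members and lists were chosen with earlier results of these data known. Counts were tested with edgeR 4.0.16 in R 4.3.3 (TMM, robust quasi-likelihood, condition as the only term) for genes that reached 10 counts in 4 or more libraries, with Benjamini-Hochberg adjustment. A gene was called at an adjusted p below 0.05. CPM are TMM-normalised. Isoform shares of FPKM were compared by two-sided exact permutation tests. Implied length is counts divided by FPKM and by library size. Alternatives used DESeq2 1.42.0 and limma 3.58.1 on log2(FPKM + 1) and log2(FPKM + 0.1), for genes with a mean of at least 0.5 FPKM over all libraries. The log2(FPKM + 1) fit was also run unfiltered. Others used voom weights, upper-quartile scaling, library size only and other count filters. The rest were a replicate block, a loess correction for implied length (span 0.5) and leaving out each library. Principal-transcript and exon-length shares, and the length correction with the block, were added after seeing the data. Positions and sequences come from GENCODE v29.

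By rule, the genes named in the text are the 8 members, up to 4 genes in each direction with the smallest adjusted p in each list, ACACA, ACACB, and the 3 genes most correlated with each catalytic gene. ULK1, FOXO3, PFKFB2, PPARGC1A, CAMKK1, CAB39, SESN3, PPP6C, SIK1 and PFKFB3 fall outside the rule and were named after their values were seen. A further gene of the rule is counted in its list but is not reported here or plotted. The labels do not say what a library number marks. The correlations of same-numbered libraries, given below, detected no pairing, and the groups were treated as unpaired. Low correlations cannot show that no culture or batch was shared.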

Additional observations from a re-analysis of the deposited data

Results flagged for a closer look

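In 38 checks, each of 1 measure in 1 group of 4 libraries, 4 had a library set apart. Its gap to the nearest other, divided by the range of the group, was above Dixon's 95% critical value, and chance gives about 1 in 20. The checks cover CPM, FPKM and shares of the same genes and libraries, so they are not independent. PRKAA2 in OGD/R+Rk2 replicate 4 was at 2.57 FPKM, above 2.211 to 2.27 FPKM in the other libraries of its group (ratio 0.846), and PRKAA2 still passed the test without that library. PRKAB1 in OGD/R+DMSO replicate 4 was at 31.1 CPM, below 40.6 to 42.0 CPM in the other libraries (ratio 0.876). PRKAG2 in OGD/R+Rk2 replicate 2 was at 10.4 CPM, above 8.96 to 9.12 CPM in the others (ratio 0.891). The PRKAG2 share of γ transcripts in OGD/R+Rk2 replicate 3 was 21.4%, above 14.6 to 15.03% in the others (ratio 0.931).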

How the results depend on the processing

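PRKAA2 was called in 20 of 20 alternatives, with a log2 fold change of 0.45 to 0.73 in the 12 that used all libraries and 0.65 to 0.78 without 1 library, and the other 7 genes in 0 of 20. The 2351 calls over all genes became 1121 and 1106 with limma on FPKM at pseudocounts of 1 and 0.1, 971 without a filter, 1453 with length correction and block, 3010 with DESeq2, and 1291 to 2282 without 1 library, the lowest without OGD/R+Rk2 replicate 4. The split of 1416 higher and 935 lower calls became 1246 and 1300 with upper-quartile scaling, 1643 and 683 with library size only, and 1150 and 1083 with length correction. With the replicate block 1814 genes were called and PRKAA2 was at 0.71 (edgeR, adjusted p = 0.0101). Same-numbered libraries did not deviate together (correlations -0.00945 to 0.0845, 2 of 8 best with their own number), and 4 pairs are too few for the shares to pass an exact permutation test.

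Calls among upstream partners (2) fell to 1 with library size only, no filter, the 3 FPKM fits and the block, to 0 with length correction and block, and to 0 to 2 without 1 library. Calls among related kinases fell from 2 to 1, and among regulators from 5 to 3, in the 3 FPKM fits. Signs turned for uncalled values: PRKAB1 was at 0.0157 with library size only, 0.000477 with length correction, 0.00781 with length correction and block, and -0.108 to 0.025 without 1 library. PRKAB2 was at 0.00893 with limma on log2(FPKM + 1), filtered or not, and 0.0115 at 0.1. CAMKK2 was at -0.0412 with length correction and -0.0405 with the block added. PRKAG2 was at -0.113 to 0.0359 without 1 library.

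The OGD/R+DMSO shares of PRKAA2, PRKAB2 and PRKAG2 were 6.77, 57.1 and 12.1% by exon length, and 5.33 and 10.2% for PRKAA2 and PRKAG2 by principal transcript. Raw counts gave 9.38% for PRKAA2 and 53.8% for PRKAB2. The difference between groups in the PRKAB2 share was -0.409 points by raw counts, -2.54 with length correction, -0.387 by exon length, -0.459 by principal transcript, and -0.339 to 4.11 without 1 library. For PRKAG2 it was -0.985 to 1.94 without 1 library. The cause of these changes was not tested. PRKAA2 rested on 251 to 774 reads a library.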

Other observations

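Some genes around AMPK stood far lower or higher in some libraries than in the rest of the same group, and these genes were chosen after their values were seen. CAB39, which encodes MO25 of the LKB1 complex, was at 86.9, 93.2, 35.7 and 90.4 CPM with DMSO and 89.3, 29.5, 90.8 and 95.8 CPM with Rk2. SESN3, another sestrin, was at 17.03 to 23.7 CPM with DMSO and at 3.50, 23.0, 25.5 and 26.4 CPM with Rk2. The drop of SESN3 was smaller in FPKM, at 1.16 in OGD/R+Rk2 replicate 1. The other OGD/R+Rk2 libraries were at 2.04 to 2.35 FPKM and the OGD/R+DMSO libraries at 1.45 to 2.06 FPKM. PPP6C, a catalytic phosphatase subunit, was at 119, 57.4, 65.3 and 114 CPM with DMSO and 62.7, 117, 113 and 116 CPM with Rk2. OGD/R+DMSO replicate 3 was low for both CAB39 and PPP6C, and OGD/R+Rk2 replicate 1 for both SESN3 and PPP6C, while the other low libraries were low for a single gene of the 3. None of CAB39, SESN3 and PPP6C passed the test (edgeR, adjusted p = 0.996, 0.993 and 0.680). In OGD/R+Rk2 replicate 2, where CAB39 was low, SIK1, another AMPK-related kinase gene, was also low. It was at 21.1 CPM there, beside 52.6 to 56.7 CPM in the other libraries of its group (edgeR, adjusted p = 0.932).

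PFKFB3, a glycolytic regulator, was at 134 CPM in OGD/R+DMSO replicate 1 and at 64.0 to 68.7 CPM in the other OGD/R+DMSO libraries. With Rk2 it was at 50.2 to 57.4 CPM, below every OGD/R+DMSO library, but the log2 fold change of -0.63 did not pass the test (edgeR, adjusted p = 0.105). In FPKM the groups overlapped, at 13.6 to 25.8 with DMSO and 15.2 to 28.9 with Rk2, and OGD/R+DMSO replicate 1 (25.8) did not stand apart. OGD/R+DMSO replicate 1 also had the lowest weight of the 8 libraries in the weighted limma fit (0.353).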
